A study of Mus musculus with 8 samples.

Results

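A set of 8 genes of the AP-1 transcription factor family and its stress-induced relative Atf3 were examined in a mouse model of malignant peripheral nerve sheath tumor (MPNST), a sarcoma that arises from Schwann lineage cells. The members were the rows of the deposited table whose symbol was Fos, Fosb, Fosl1, Fosl2, Junb, Jund, Atf3 or Batf, and all 8 were found among 20943 genes. RNA from 8 tumors was profiled by poly-A RNA sequencing, and each value is a quantile-normalized log2 gene count, so a difference of 1 is a doubling. All mice carried Plp-CreERT, a tamoxifen-inducible recombinase expressed in Schwann lineage cells, with Nf1(f/f) and Cdkn2a(f/f), and were given 0.4 mg tamoxifen from day 0 to day 3 after birth. The 5 PRC2 wildtype tumors had no further allele, and the 3 PRC2 loss tumors also had Eed(f/f), which removes an essential part of PRC2, the Polycomb complex that places methyl groups on lysine 27 of histone H3. The labels give no age at collection and no strain.

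AP-1 is a dimer of basic leucine zipper proteins: a Fos protein (Fos, Fosb, Fosl1, Fosl2) pairs with a partner such as Junb or Jund, and the dimer binds short DNA sites in promoters and enhancers. Growth factors and Ras act through the ERK, JNK and p38 kinases to induce many of these genes, Fos, Fosb, Junb and Atf3 within minutes as immediate early genes and Fosl1 later and for longer. Nf1 restrains Ras, so the loss of Nf1 that both groups share lies upstream of this pathway. In injured nerve, AP-1 factors and Atf3 are known as genes of the injury response.

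Eed stood between 10.17 and 10.33 in the wildtype tumors and between 8.76 and 8.96 in the PRC2 loss tumors. RNA of the gene whose allele defines the groups was thus lower, though not absent, in every PRC2 loss tumor. The state of the allele itself was not measured. Animal numbers in the labels are shared by wildtype tumors 1 and 2, by wildtype tumors 3 and 4, and by PRC2 loss tumors 2 and 3, which leaves 3 numbers among wildtype and 2 among PRC2 loss tumors. If such tumors came from 1 mouse, the p-values below treat tumors of that mouse as independent and are too small. The label of PRC2 loss tumor 1 names a right paraspinal nerve, and those of tumors 2 and 3 a left and a right sciatic nerve. The wildtype labels say only tumor and name no nerve. PRC2 status and the tissue or site named in the labels therefore cannot be told apart in the results below. Wildtype tumors 1 and 2 stood apart in skeletal muscle genes, whose summed log2 level was 16.51 in tumor 1 and 16.28 in tumor 2 and between 8.12 and 13.03 in the other 6 tumors. Of 12 Schwann cell and myelin markers, 10 rose and 1 fell in PRC2 loss; Sox10, which defines the lineage, was at 12.09 and 12.40 in wildtype tumors 1 and 2, between 7.07 and 8.37 in the other 3, and between 12.08 and 12.57 in PRC2 loss. All 8 mast cell markers, 8 of 10 endothelial and 8 of 10 neutrophil markers rose as well. By the same test, given below, 16% of all genes rose and 19.6% fell. The part of these cell types in the results was not tested. Sequencing depth is unknown.

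For 7 of the 8 members RefSeq's table held a promoter. The 250 bases before the start of Fos, Fosb and Junb are shown because these immediate early members all fell in PRC2 loss; coordinates are GRCm38.p6 (mm10), and capitals mark TGACG, the left part of the cyclic AMP response element TGACGTCA, on either strand, and the TATA motif TATAAA.
Fos, chr12:85473640-85473889, plus strand: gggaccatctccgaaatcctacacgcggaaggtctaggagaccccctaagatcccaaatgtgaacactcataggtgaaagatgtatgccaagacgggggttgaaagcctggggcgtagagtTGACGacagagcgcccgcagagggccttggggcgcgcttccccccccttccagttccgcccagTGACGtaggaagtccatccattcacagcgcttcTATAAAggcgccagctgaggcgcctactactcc
Fosb, chr7:19310046-19310295, minus strand: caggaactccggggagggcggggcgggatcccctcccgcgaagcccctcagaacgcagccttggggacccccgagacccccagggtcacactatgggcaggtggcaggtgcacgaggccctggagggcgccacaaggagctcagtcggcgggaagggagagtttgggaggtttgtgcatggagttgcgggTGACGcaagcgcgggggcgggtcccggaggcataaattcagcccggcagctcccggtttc
Junb, chr8:84978749-84978998, minus strand: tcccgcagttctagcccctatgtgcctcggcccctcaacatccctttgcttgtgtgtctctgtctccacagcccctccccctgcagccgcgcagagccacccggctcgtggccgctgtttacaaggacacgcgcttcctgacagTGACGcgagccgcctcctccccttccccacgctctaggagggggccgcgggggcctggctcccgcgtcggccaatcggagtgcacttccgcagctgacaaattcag
In Fos, TGACG began 129 and 66 bases before the start and TATAAA 33 bases before it. Fosb held TGACG from 60 and Junb from 106 bases before the start. TGACG was present in 5 of the 7 member windows, also in those of Atf3 and Batf, whose values did not pass the test. It was present in 17.8% of 32851 mouse promoter windows of this length. Each window lies before the start used by RefSeq, which can differ from GENCODE's start of the gene. The window of Jund ends at 70697738, while GENCODE starts the gene at 70698949. Those of Fosl2 and Atf3 lie inside the GENCODE genes, and those of Batf and Fosb overlap their GENCODE starts. The window of Junb stops at 84978749, short of the GENCODE start at 84978718. The counts therefore describe these windows, not every promoter of the genes. The full element TGACGTCA (1.55% of all windows), the AP-1 site TGANTCA (6.75%) and the CArG box bound by serum response factor (1.47%) were in none of the 7 windows, which says only that these letters are not in the 250 bases shown.

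Transcripts of all 4 Fos-group genes and of Junb were lower on average in PRC2 loss tumors. The calls for Fos and Fosl2 were lost in 9 and 11 of 20 alternatives. They depended on which tumors were included, and also on the model and the scaling. With limma, a linear model over all 20807 genes that varied, with Benjamini-Hochberg adjusted p below 0.05 as the threshold, 5 of the 8 members fell and none rose, where 19.6% of all genes fell, 16% rose and 35.7% changed in either direction. With the tumors of each animal number averaged, 3 members fell, and 2113 of all 20807 genes fell. These were Fosl1, Fosb and Junb (limma adjusted p = 0.01, 0.0246 and 0.0193). In the main fit the median log2 difference of the 8 members was -1.27, against -0.12 for all genes. The groups did not overlap for 4 members, Fos, Fosb, Fosl1 and Junb, all lower in PRC2 loss; 21.4% of all genes were lower without overlap. No member was listed at 0 in any tumor. PRC2 loss tumor 3 had the lowest value of all 8 tumors for 5 members, and wildtype tumor 2 the highest for 4.

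**Figure D1:**
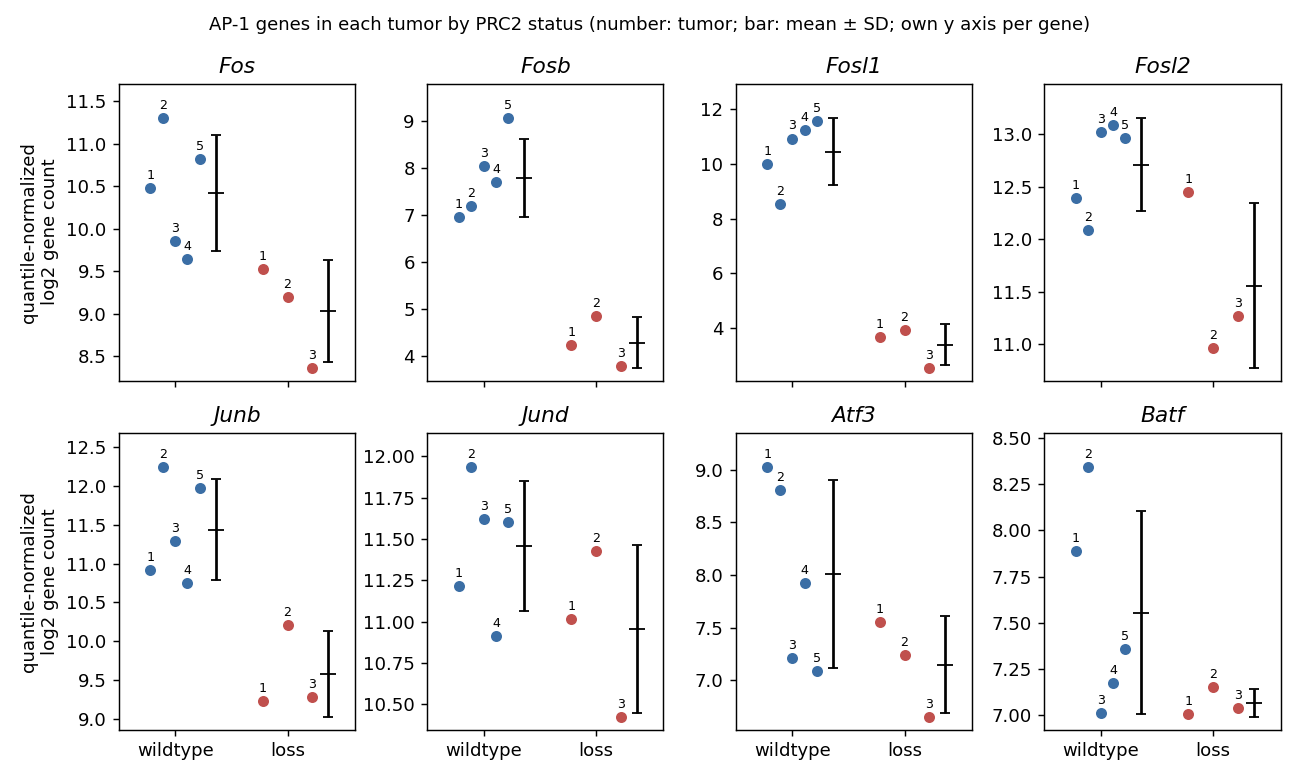
Quantile-normalized log2 gene count (y axis, scaled for each gene) of the 8 members in each tumor, with points numbered by tumor and bars giving the mean ± SD of 5 wildtype and 3 PRC2 loss tumors. For Fos, Fosb, Fosl1 and Junb all PRC2 loss points lie under all wildtype points, and the groups overlap for Fosl2, Jund, Atf3 and Batf.

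Fosl1 encodes Fra-1, a Fos protein with no strong activation domain that is maintained by sustained ERK signaling and linked to invasive growth. Its gene lies on chromosome 19 from 5447547 to 5455946 (plus strand, ENSMUSG00000024912.6; gene positions here are mm10, from GENCODE M21). The log2 count was 9.98, 8.55, 10.93, 11.25 and 11.57 in wildtype tumors 1 to 5 and 3.68, 3.94 and 2.53 in PRC2 loss tumors 1 to 3. A gap of 4.61 separated the lowest wildtype tumor from the highest PRC2 loss tumor, more than the range of 3.03 within wildtype. The means were 10.46 ± 1.22 (SD, n = 5) and 3.38 ± 0.75 (SD, n = 3), a log2 difference of -7.07 (SE 0.69, 95% confidence interval -8.66 to -5.49) or 135-fold lower, with limma adjusted p = 0.000351. Of all 20807 genes, 6 had a larger fall. Tumors 1 and 2, the wildtype tumors with much skeletal muscle RNA and high Sox10, had the lowest wildtype values, and without both of them the difference was -7.87 (limma adjusted p = 0.00021). The labels do not give the offset used before taking logs, on which low values such as those in PRC2 loss depend: with 16 added on the linear scale the difference was -5.73.

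Fosb, of which a short protein form accumulates after repeated stimulation, showed the next largest fall. The gene is on chromosome 7 from 19302696 to 19310051 (minus strand, ENSMUSG00000003545.3). Log2 counts were 6.95, 7.19, 8.04, 7.69 and 9.05 in wildtype tumors 1 to 5 against 4.22, 4.86 and 3.78 in PRC2 loss tumors 1 to 3. Wildtype tumor 5 was the highest, and all 3 PRC2 loss tumors were at least 2.09 below the lowest wildtype tumor. Mean values of 7.78 ± 0.83 (SD, n = 5) and 4.29 ± 0.54 (SD, n = 3) gave a log2 difference of -3.50 (SE 0.53, interval -4.71 to -2.29), 11.3-fold lower, with limma adjusted p = 0.00192. With 16 added on the linear scale it was -2.73.

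Fos, the namesake of the group and a standard marker of recent stimulation, was lower by less. It lies on chromosome 12 from 85473890 to 85477273 (plus strand, ENSMUSG00000021250.13). Values of 10.48, 11.30, 9.85, 9.64 and 10.82 were listed for wildtype tumors 1 to 5 and 9.53, 9.20 and 8.36 for PRC2 loss tumors 1 to 3. The groups were only 0.11 apart at their closest, between wildtype tumor 4 and PRC2 loss tumor 1. The log2 difference was -1.39 (SE 0.42, interval -2.34 to -0.43), 2.62-fold lower, from means of 10.42 ± 0.68 (SD, n = 5) and 9.03 ± 0.60 (SD, n = 3), with limma adjusted p = 0.0319. The call was lost without wildtype tumor 1 or 5 (limma adjusted p = 0.0585 and 0.0636) or PRC2 loss tumor 2 or 3 (0.0737 and 0.125), with a log2 difference between -1.64 and -1.05 over all 8 such fits. It was also lost with the tumors of each animal number averaged (-1.33, limma adjusted p = 0.0893) and when each tumor was centred on 15 housekeeping genes (-0.84, 0.171).

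Fosl2 encodes Fra-2, which like Fra-1 lacks a strong activation domain. It is on chromosome 5 from 32135801 to 32157842 (plus strand, ENSMUSG00000029135.10). Wildtype tumors 1 to 5 had 12.39, 12.09, 13.02, 13.08 and 12.96 and PRC2 loss tumors 1 to 3 had 12.45, 10.96 and 11.26. PRC2 loss tumor 1, the paraspinal tumor, lay within the wildtype range, while both sciatic tumors, which share an animal number, lay below it. The log2 difference was -1.15 (SE 0.37, interval -1.99 to -0.31), 2.22-fold lower, with means of 12.71 ± 0.44 (SD, n = 5) and 11.56 ± 0.78 (SD, n = 3) and limma adjusted p = 0.0398. The call was lost without wildtype tumor 1, 3, 4 or 5 (limma adjusted p = 0.0502, 0.079, 0.0786 and 0.0762) or PRC2 loss tumor 2 or 3 (0.154 and 0.135), while without PRC2 loss tumor 1 the difference was -1.59 (0.0107). It was lost too with animal numbers averaged (-0.97, limma adjusted p = 0.194) and with housekeeping centring, where the difference was -0.60 (0.25).

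Within a tumor, the ratio of 2 genes is not changed by a factor common to all genes, such as housekeeping centring, though quantile normalization and the log offset can still change it. The log2 count of Fosl1 minus that of Fosl2 was -2.41, -3.54, -2.09, -1.83 and -1.39 in wildtype tumors 1 to 5 and -8.77, -7.03 and -8.74 in PRC2 loss tumors 1 to 3. The groups did not overlap, and the mean ratio was lower in PRC2 loss by 5.92 on the log2 scale (60.7-fold; two-sided exact permutation test over 56 splits, p = 0.0179, adjusted over 2 ratios 0.0179), the smallest p this design allows. With 16 added on the linear scale the difference in this ratio was -4.58. The separation of the groups was fixed by Fosl1 alone, because its gap of 4.61 between groups exceeded the whole spread of Fosl2, from 10.96 to 13.08. The permutation p of this ratio therefore restates the fall of Fosl1 and is no separate support. The 2 Fra genes did not change in proportion in these tumors, with log2 differences of -7.07 for Fosl1 and -1.15 for Fosl2. A ratio of counts of genes of different length gives no relative abundance, only its difference between groups.

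Junb and Jund, partners of the Fos proteins, are known for opposite habits: Junb is induced by stimulation and Jund is expressed steadily. Junb lies on chromosome 8 from 84974484 to 84978718 (minus strand, ENSMUSG00000052837.6), and its values were 10.92, 12.24, 11.29, 10.76 and 11.97 in wildtype tumors 1 to 5 and 9.23, 10.21 and 9.28 in PRC2 loss tumors 1 to 3. Every PRC2 loss tumor was below every wildtype tumor, by 0.54 at the closest. From means of 11.44 ± 0.65 (SD, n = 5) and 9.57 ± 0.55 (SD, n = 3), Junb fell by 1.86 on the log2 scale (SE 0.39, interval -2.76 to -0.97), 3.63-fold, with limma adjusted p = 0.00766. Jund, on chromosome 8 from 70698949 to 70700616 (plus strand, ENSMUSG00000071076.6), was listed at 11.22, 11.93, 11.62, 10.92 and 11.60 for wildtype tumors 1 to 5, and PRC2 loss tumors 1 to 3 had 11.02, 11.43 and 10.42. The groups overlapped in all but PRC2 loss tumor 3, the lowest of the 8. Jund did not pass the test (log2 difference -0.50, SE 0.28, interval -1.14 to 0.14, limma adjusted p = 0.2), and its interval includes both no change and a 2.21-fold fall. With housekeeping centring its difference turned to 0.045 (limma adjusted p = 0.924), while that of Junb was -1.31 (0.0299).

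The log2 count of Junb minus that of Jund ranged from -0.33 to 0.37 over the wildtype tumors, whereas PRC2 loss tumors 1 to 3 had -1.78, -1.22 and -1.14. This ratio was lower in PRC2 loss by 1.36 on the log2 scale (2.57-fold), without overlap (two-sided exact permutation test, p = 0.0179, adjusted over 2 ratios 0.0179). This is the smallest p that the 56 splits allow, and they treat tumors that share an animal number as independent. Junb alone already separated the groups, so the p adds little to the fall of Junb.

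**Figure D2:**
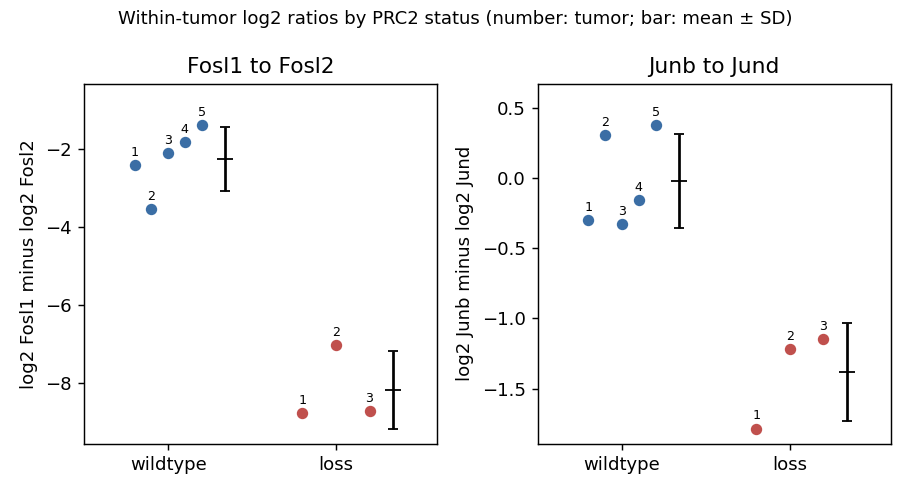
Log2 count of Fosl1 minus Fosl2 (left) and of Junb minus Jund (right) within each tumor (y axes, log2 units), with numbered tumors as points and bars for the mean ± SD of 5 wildtype and 3 PRC2 loss tumors. Both ratios are lower in all 3 PRC2 loss tumors than in any wildtype tumor, by 5.92 and 1.36 on average.

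Atf3 is induced by stress and nerve injury and can repress or activate as a dimer with other zipper proteins. Its gene is on chromosome 1 from 191170296 to 191218039 (minus strand, ENSMUSG00000026628.13). Wildtype tumors 1 to 5 had log2 counts of 9.02, 8.81, 7.21, 7.93 and 7.09 and PRC2 loss tumors 1 to 3 of 7.56, 7.24 and 6.65. High values were found in wildtype tumors 1 and 2, which share an animal number. These tumors had much skeletal muscle RNA, high Sox10 and the highest summed T and NK cell marker levels (12.40 and 13.48). These traits cannot be told apart here, and their part in the Atf3 values was not tested. Wildtype tumors 3 and 5 lay within the PRC2 loss range, and wildtype tumor 4 was above it. Atf3 did not pass the test (log2 difference -0.86, SE 0.51, interval -2.03 to 0.31, limma adjusted p = 0.225). Without wildtype tumors 1 and 2 the difference was -0.26 (limma adjusted p = 0.626).

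Batf, a small AP-1 protein of T cells and other immune cells that acts with Irf4 and Irf8, lies on chromosome 12 from 85686669 to 85709087 (plus strand, ENSMUSG00000034266.6). It had values of 7.89, 8.34, 7.01, 7.17 and 7.36 in wildtype tumors 1 to 5, and PRC2 loss tumors 1 to 3 had 7.01, 7.15 and 7.04. The PRC2 loss tumors spanned 0.14 and the wildtype tumors 1.33, with tumors 1 and 2 at the top. Batf did not pass the test (log2 difference -0.49, SE 0.35, interval -1.28 to 0.30, limma adjusted p = 0.306), and its sign turned with housekeeping centring (0.057, limma adjusted p = 0.917). The summed log2 level of 20 T and NK cell markers was also highest in wildtype tumors 1 and 2, at 12.40 and 13.48, and lay between 11.43 and 11.93 in the other wildtype tumors and between 9.43 and 10.67 in PRC2 loss, where 15 of the 20 markers fell. In bulk tumors, fewer cells of a type and less RNA per cell cannot be told apart, and the part of immune cells in the Batf values was not tested. Of 14 genes of Batf partners and their lymphoid programs, 5 fell and none rose, among them Eomes (log2 difference -3.29, limma adjusted p = 0.002) and Foxp3 (-3.26, 0.00591), regulators of cytotoxic and regulatory T cells, while Irf4 did not pass the test (0.03) and Irf8 fell by 1.73. Over all genes 19.6% fell and 16% rose. The count of partners that fell was 2 with low genes left out, with animal numbers averaged or without PRC2 loss tumor 1, and 1 with the replicate number as a block; with housekeeping centring 3 fell and 2 rose.

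**Figure D3:**
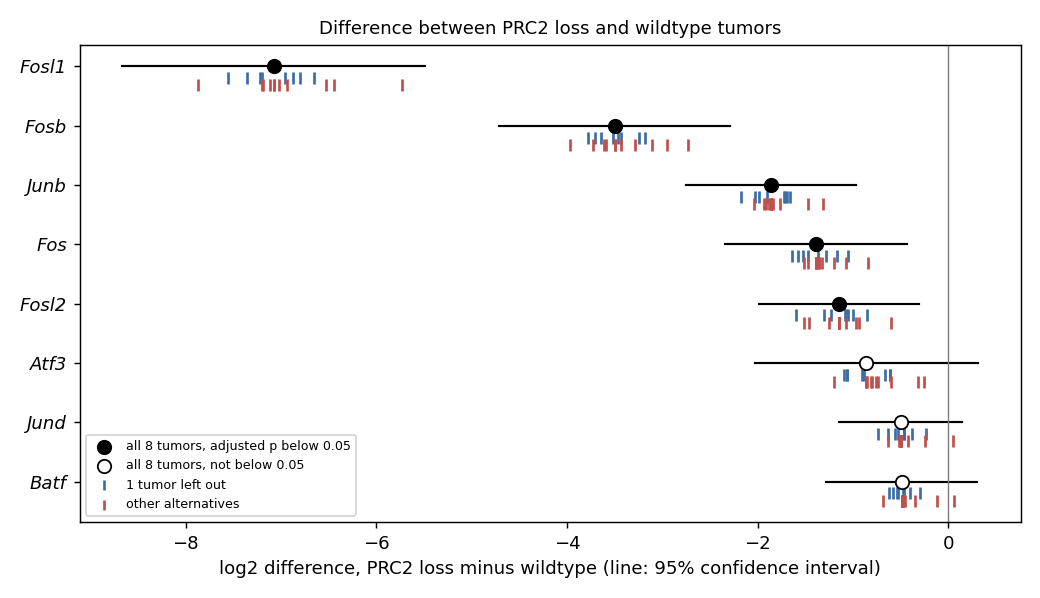
Log2 difference between PRC2 loss and wildtype tumors (x axis) for each member, as a point with its 95% confidence interval, filled where limma's adjusted p was below 0.05, with ticks below for the difference when 1 tumor is left out (blue) and under other alternatives (red). Fosl1, Fosb and Junb lie well below 0 throughout, and some ticks of Jund and Batf lie above 0.

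The genes closest to Fosl1 and Fos over the 8 tumors are given as a description. Likeness was the root mean square difference between gene-centred log2 values, among the genes in the upper part of the table by mean, split at the median; it keeps the difference between the groups, so a close gene must differ between them by a similar amount. For Fosl1 the 5 closest were Hmga2 (0.54), Sema3a (0.83), Crabp1 (0.86), Rgs17 (0.95) and Hmga1b (1.14), which fell by between 4.97 and 6.32 on the log2 scale. Hmga2 encodes a chromatin architectural protein of embryonic cells, Sema3a a secreted guidance molecule and Crabp1 a retinoic acid binding protein; Hmga1b has near-identical copies that can share reads, so its values are uncertain. For Fos the closest were Cacnb3 (0.29), the chemokine gene Ccl9 (0.29), the properdin gene Cfp (0.30), Serf1 (0.33) and the macrophage gene Ms4a6d (0.33). Serf1 alone of these missed the threshold (limma adjusted p = 0.098). Among the members themselves Fos was closest to Junb (0.50) and 3.02 away from Fosl1. The summed log2 level of 15 macrophage and monocyte markers was between 16.40 and 17.62 in wildtype and between 15.67 and 16.07 in PRC2 loss. Of these markers 9 were lower and 1 higher, where 19.6% of all genes were lower and 16% higher. The part of these cells in the Fos values was not tested.

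Of 38 genes known as AP-1 targets 19 fell and 2 rose in PRC2 loss, with a median log2 difference of -1.70, beside 19.6% lower and 16% higher and a median of -0.12 over all genes. The list was not tested as a set. Mmp13, a collagenase gene, averaged 8.84 ± 1.16 over wildtype (SD, n = 5) and 3.38 ± 0.75 over PRC2 loss tumors (SD, n = 3), 43.8-fold lower (limma adjusted p = 0.000913). The growth factor gene Ereg was 26.7-fold lower (8.99 ± 0.67 and 4.25 ± 1.03, limma adjusted p = 0.000647). The hyaluronan receptor gene Cd44 was 5.48-fold lower (13.42 ± 0.43 and 10.97 ± 0.23, limma adjusted p = 0.00038). Itgb4, an integrin of perineurial cells, and Nqo1, an antioxidant enzyme, were the 2 that rose, by 1.99 and 1.08. Several genes of this list, such as Mmp12 and Ccl2, are also expressed by macrophages, whose markers were lower as given above, and the part of these cells was not tested. With housekeeping centring 15 of the 38 fell and 3 rose, and with animal numbers averaged 15 fell and none rose. The median was -0.82 over the 24 genes left after low genes were removed, of which 11 fell, and -1.07 with 16 added on the linear scale, where 15 fell and 1 rose. With the replicate number as a block 9 fell and none rose.

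Of 32 other immediate early genes, 6 fell and 4 rose, with a median log2 difference of -0.0077. Socs3, a feedback inhibitor of cytokine signaling, fell by 1.57 and Trib1 by 1.22, while the myelination factor gene Egr2 rose by 2.00 and the nuclear receptor gene Nr4a1 by 1.28. Both shares are near those of all genes (19.6% and 16%). Of 36 genes of the ERK, JNK and p38 cascades with the serum response factors, 7 fell and 4 rose, with a median of -0.047, shares at or under those of all genes. Srf, the factor that binds the CArG box, fell by 0.97 and the kinase gene Rps6ka4 (MSK2) by 1.01, while Rps6ka5 (MSK1) rose by 1.31 and the Srf coactivator gene Mrtfb by 1.64. Of 15 other AP-1 and Maf zipper genes 1 fell and 1, Maf, rose by 0.49, with a median of -0.017. Housekeeping centring turned these 3 lists upward, to 10, 17 and 5 genes higher and 2, 2 and 0 lower, and moved the median of all genes from -0.12 to 0.42; of the 15 housekeeping genes used, 9 fell and none rose.

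**Figure D4:**
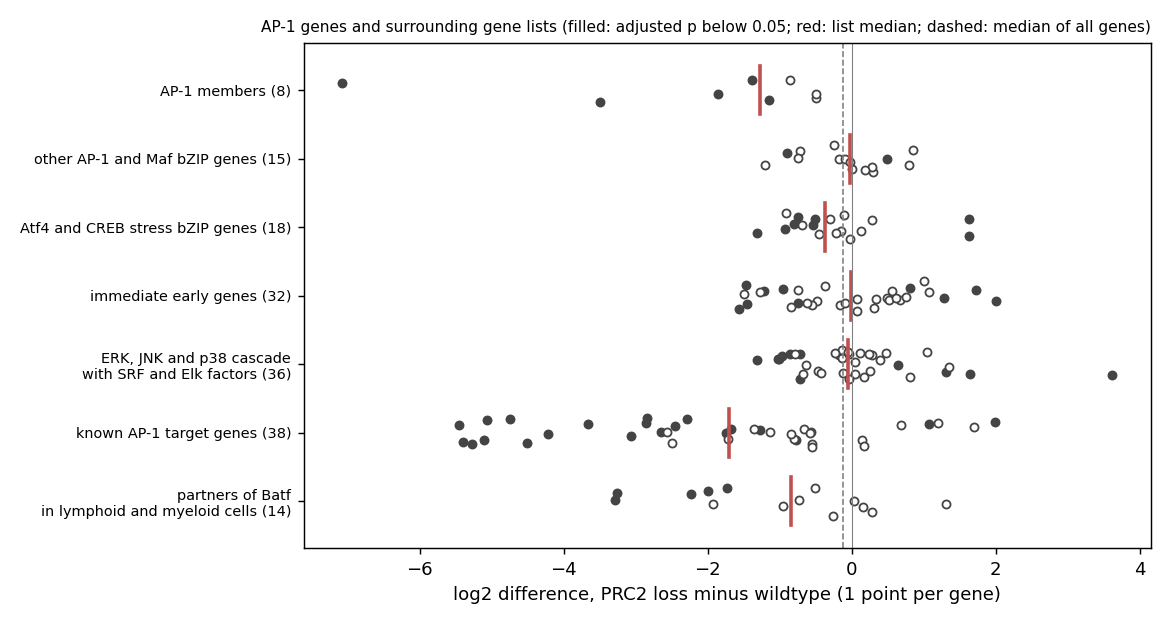
Log2 difference between PRC2 loss and wildtype tumors (x axis) for each gene of the member list and 6 surrounding lists, with list size in brackets, filled points for limma adjusted p below 0.05, a red bar at the list median and a dashed line at the median of all genes. The AP-1 targets reach furthest to the left after Fosl1, with a median of -1.70, and the immediate early genes spread around 0.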

How the data were processed

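RNA was extracted with Trizol and made into TruSeq poly-A libraries, per the labels' protocols. Trim Galore, STAR 2.6, Partek 7.0 and mm10 are named in the submitters' processing notes; the labels do not state how reads were counted, the annotation, strand use or the log offset. The authors deposited quantile-normalized log2 gene counts, so library totals and depth are unknown. The titles' PRC2 status set each tumor's group, and columns were matched by description.

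Genes with 1 value in all tumors (136) were dropped. The remaining 20807 were tested with limma 3.58.1 (R 4.3.3), with a trended prior, two-sided, adjusted by Benjamini-Hochberg, and no pseudocount was added. The procedure was tested on simulated data. The ratios were tested by exact permutation. The summed level of a list is the log2 of its summed linear values. The members and gene lists were chosen with earlier results of these data known. Named list genes are up to 4 per list by smallest p, then by mean; others, such as Itgb4, Nqo1, Mmp12, Ccl2, Irf4 and Irf8, were named after their values were seen. Some list genes are not reported singly but stay in every fit and count. Alternatives were a low-value filter, pseudocounts of 1 and 16, other priors, array weights, housekeeping centring, animal number averaged or as a block, a replicate block, sex, and leaving out each tumor; leaving out wildtype tumors 1 and 2, and all alternatives for the lists, were added after seeing the data.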

Additional observations from a re-analysis of the deposited data

How the results depend on the processing

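Fosl1 and Junb kept their direction and limma adjusted p below 0.05 in every alternative run, and Fosb in all but the replicate block. Atf3 fell short of the threshold in all. Jund and Batf did too, and turned to 0.045 and 0.057 with housekeeping centring. The call for Fos was lost in 9 of 20 alternatives and that for Fosl2 in 11 of 20; the cause was not tested. Fosl2 was lost with a prior without trend (-1.15, limma adjusted p = 0.056). Housekeeping centring gave Fos -0.84 and Fosl2 -0.60, 3 members lower, and 1664 genes lower and 7191 higher of all genes, against 4087 and 3337. Averaging animal numbers gave Fos -1.33, Fosl2 -0.97, 3 members lower and 2113 genes in each direction; animal number as a random block gave Fos -1.36 (limma adjusted p = 0.0567), Fosl2 -1.07 (0.0664) and 3 members lower. Leaving out genes below the median mean removed Fosb, Fosl1, Atf3 and Batf, so 3 of 4 members tested were lower, with 2533 genes lower and 1715 higher and 11 of 24 AP-1 targets lower. Without wildtype tumors 1 and 2 Fos was -1.07 (limma adjusted p = 0.0821). Leaving out 1 tumor at a time gave 3 to 5 members lower, Fos from -1.64 to -1.05 and Fosl2 from -1.59 to -0.85.

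With the replicate number of the titles as a block, 2 members, 774 genes and 9 AP-1 targets were lower and 1129 genes higher; Fos was -1.51 (limma adjusted p = 0.0557), Fosb -3.11 (0.0541) and Fosl2 -0.94 (0.198). The replicate block uses only 3 shared numbers. Deviations of same-numbered tumors had correlations of -0.155, 0.0945 and -0.0482 for numbers 1 to 3. Those of differently numbered tumors ran from -0.171 to 0.217. So few correlations cannot decide whether the numbers pair the tumors. The ratio differences were -5.50 and -1.27 with that pairing, -6.22 and -1.53 with animal numbers averaged, and -6.41 and -1.34 without wildtype tumors 1 and 2, for Fosl1 to Fosl2 and Junb to Jund in that order. With 16 added on the linear scale the ratio differences were -4.58 and -1.34. The designs with that pairing, with animal numbers averaged and without wildtype tumors 1 and 2 cannot give an exact p below 0.25, 0.1 and 0.1, so their p-values say nothing about stability. Unknown depth leaves the low Fosl1 and Fosb values in PRC2 loss without a counting error.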

Other observations

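Among 18 other zipper factors of the Atf, CREB and C/EBP stress families, 6 fell and 2 rose in PRC2 loss, with a median log2 difference of -0.38; over all genes 19.6% fell and 16% rose, with a median of -0.12. Nfe2l2, the master factor of the antioxidant response, fell by 0.80 (limma adjusted p = 0.000768) and Creb5 by 1.32 (0.00357). Atf6b, of the unfolded protein response, fell by 0.93 (limma adjusted p = 0.00478) and Atf1 by 0.53 (0.00528). With housekeeping centring none of the 18 fell and 3 rose, so these falls depend on the scaling.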
